A study of Mus musculus with 45 samples.

Results

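The comparison described here set 5 hippocampal neuron libraries given TTX plus NMDA for the second hour of a 2 h bicuculline stimulation (LP TTX/NMDA) against 5 libraries given bicuculline alone for 2 h (Bic 2 h). These are 10 of the 45 libraries and 2 of the 9 groups of the series, chosen by their treatment labels and paired by culture preparation number (1, 3, 6, 7 and 8), with all genes of the count table entering the fit. All cultures were primary hippocampal neurons of newborn C57BL/6N mice, treated at 10 or 11 days in vitro (DIV) per the labels and at 11 per the study's methods, grown with 1% rat serum and treated with the antimitotic cytosine arabinoside on DIV 3. Bicuculline (Bic), at 50 µM, was given for 1 h to start network firing in both groups, and stayed in the medium throughout. The LP TTX/NMDA cultures then received 1 µM tetrodotoxin (TTX) and 30 µM NMDA for 1 h, while the Bic 2 h cultures continued in Bic. The other groups used for comparison were untreated controls, Bic for 1 h (Bic 1 h), LP TTX (1 µM TTX alone for the second hour), LP TBOA (50 µM TBOA for the second hour) and SP TTX/NMDA (0.5 h of Bic, then 0.5 h with TTX and NMDA). Such cultures hold neurons of several types with glia, so each value is a mean over mixed cells of 1 preparation. The question asked was how toxic NMDA receptor stimulation alters the messenger RNA programme that synaptic firing sets up.

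Bic blocks inhibitory GABA-A receptors and so lets a cultured network fire in bursts, TTX blocks the voltage-gated sodium channels that carry action potentials, and TBOA blocks glutamate uptake so that transmitter spills out of synapses. NMDA receptors are glutamate-gated calcium channels. Those inside synapses drive CREB- and MAP kinase-dependent transcription of immediate early genes and of later effectors such as Bdnf and Inhba, whereas bath NMDA also opens receptors outside synapses, which are linked to CREB dephosphorylation, calcium overload and neuronal death. In a pair given TTX and NMDA against continued firing, loss of firing and gain of bath NMDA come together.

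Among the transcripts that fell most were those of the miR-132 and miR-212 precursors, a CREB-regulated cluster of neuronal microRNAs on mouse chromosome 11. Polyadenylated RNA libraries count reads of the primary transcript over the hairpin, not the mature microRNA, so the mature sequences below are shown to identify the pair and its shared seed (bases 2 to 8, in capitals; AACAGUC in both). The sequences are from RefSeq on GRCm38.p6, plus strand, at chr11:75173723-75173744 for miR-132-3p and chr11:75173443-75173464 for miR-212-3p.
mmu-miR-132-3p: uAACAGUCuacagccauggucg
mmu-miR-212-3p: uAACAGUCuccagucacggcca
In the Bic 2 h libraries the Mir132 hairpin had 9.63, 5.598, 7.93, 6.38 and 8.87 CPM (TMM-normalized counts per 1000000 reads, here and below in the order of preparations 1, 3, 6, 7 and 8), against 1.66, 2.17, 3.13, 2.10 and 1.88 CPM in LP TTX/NMDA. The Mir212 hairpin had 10.6, 6.61, 8.19, 8.09 and 10.3 CPM and then 2.19, 2.65, 2.16, 2.59 and 1.63 CPM. For both hairpins every LP TTX/NMDA library was below every Bic 2 h library, and the log2 fold changes were -1.83 ± 0.165 and -1.94 ± 0.160 (SE), with adjusted p = 1e-06 and 4.9e-07. The hairpins lie in one locus and may share a primary transcript, so they are not independent.

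CREB and related factors bind the cAMP response element, whose core is TGACG and reads as CGTCA on the other strand. The 30-base windows below show, in capitals, the match to that core nearest the gene start, with its flanks inside the stretch, in RefSeq promoters (250 bases before to 50 bases after a gene start, GRCm38.p6) of genes that carry the results, each printed 5′ to 3′ in the direction of transcription.
Csrnp1: ggagttttccacTGACGaggagggcggagc
Ptgs2: gagtcaccactaCGTCAcgtggagtccgct
Bdnf: tatgacagctcaCGTCAaggcagcgtggag
Homer1: agaggagcgcgcTGACGttgctatttaaag
Npas4: gacgtcacgggaTGACGtcggaagtctggg
Nr4a1: cccctctccatgCGTCAcggagcgcttaag
Fos: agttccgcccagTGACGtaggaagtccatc
Atf3: ttaatagcattaCGTCAgcctgggattggt
The windows lie at chr9:119983793-119983822 (minus strand), chr1:150100032-150100061 (plus), chr2:109692389-109692418 (plus), chr13:93303731-93303760 (plus), chr19:4990123-4990152 (minus), chr15:101266794-101266823 (plus), chr12:85473812-85473841 (plus) and chr1:191183323-191183352 (minus). The core began from 7 bases (Atf3) to 169 bases (Npas4) before the RefSeq start, except in Ptgs2, where it was 13 bases after it. All 8 genes fell in LP TTX/NMDA, by log2 fold changes from -2.06 (Csrnp1) and -1.87 (Ptgs2) to -0.51 (Fos). The Npas4 window holds a further match, CGTCA, in lower case. Windows are shown only for genes that fell, and a match to these letters is a description of the sequence only. Its frequency over all genes with a promoter entry is given at the end.

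Library depth was 18846520 to 42692080 counted reads in Bic 2 h and 13467115 to 48077885 in LP TTX/NMDA, with the shallowest library being LP TTX/NMDA of preparation 6. Libraries of 1 group correlated across genes at 0.992 or above in Bic 2 h and at 0.986 or above in LP TTX/NMDA, and the highest value between the groups was 0.989. The share of reads on the mitochondrial genome was 0.607 to 0.798% in Bic 2 h and 1.40 to 1.87% in LP TTX/NMDA, without overlap; its part in the other results was not tested. No 2 libraries held identical counts.

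LP TTX/NMDA differed from Bic 2 h in over 50% of the measured transcriptome, mostly by small factors. Of 15947 genes tested, 9027 (56.6%) had a Benjamini-Hochberg adjusted p under 0.05 by the quasi-likelihood F test of edgeR with preparation as a block, 4927 upward (30.9%) and 4100 downward (25.7%). A change of at least 2-fold was found for 309 genes upward and 190 downward, and of at least 1.5-fold for 1698 and 925. The median log2 fold change over all tested genes was 0.055, and the median absolute change was 0.25. Of the 4927 genes called up, 4118 were higher in all 5 preparations (83.6%), and of the 4100 called down, 3757 were lower in all 5 (91.6%). A test blocked on preparation favours such genes. Over all genes tested, called or not, 8595 of 15947 had the same sign in all 5 preparations (53.9%). All 5 LP TTX/NMDA values lay below all 5 Bic 2 h values for 2663 genes (16.7%) and above them for 1878 (11.8%).

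**Figure D1:**
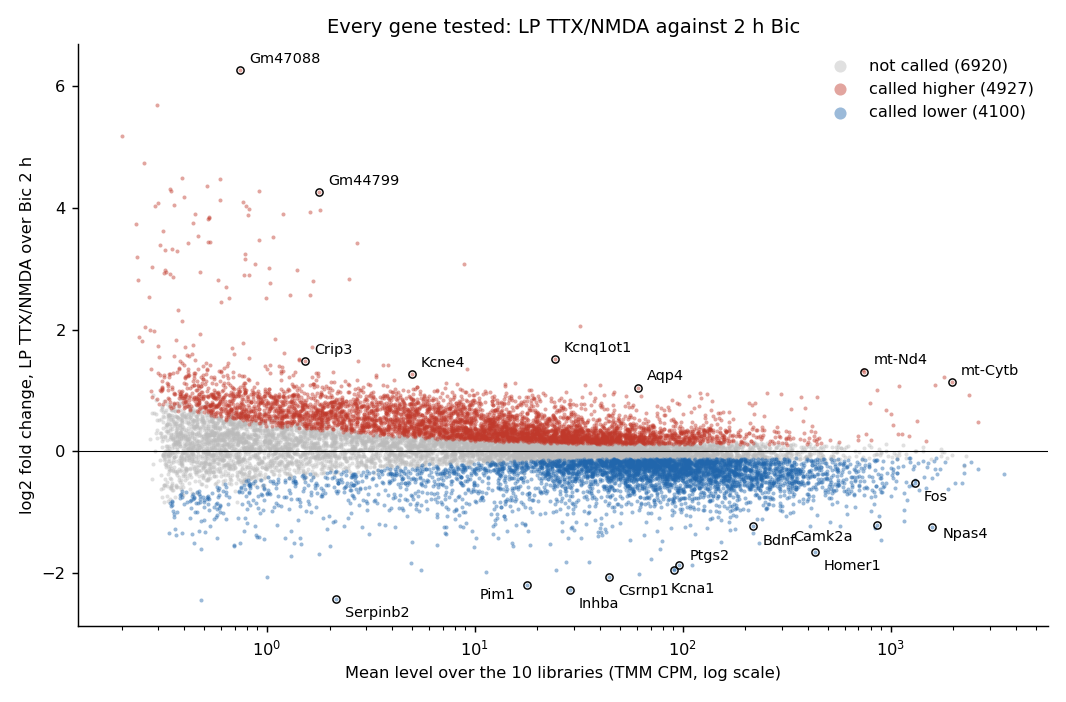
Log2 fold change of LP TTX/NMDA against Bic 2 h (vertical axis) against the mean level over the 10 libraries in CPM (horizontal log axis), 1 point for each of the 15947 genes tested and coloured by call. The 4927 genes called up and 4100 called down lie on both sides over the whole range of levels, and the points highest on the plot, such as Gm47088 and Gm44799, are low-level gene models.

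The size of the change varied between the 5 pairs. Among 13730 genes with a mean of at least 1 CPM, the median absolute log2 ratio was 0.296 in preparation 1, 0.246 in preparation 3, 0.257 in preparation 6, 0.264 in preparation 7 and 0.211 in preparation 8. Preparation 1 had 562 genes more than 2-fold higher and 336 more than 2-fold lower, and preparation 8 had 168 and 138. Preparation 6 had 167 higher and 240 lower. The slope of a preparation's log2 ratios on the mean of the other 4 was 1.17 in preparation 1 and 0.728 in preparation 8. These values describe 5 pairs of libraries, and whether preparations differ in response was not tested.

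The 14 largest falls among annotated genes included Inhba, Pim1, Csrnp1 and Serpinb2. Inhba, which encodes the activin A subunit and is a survival-linked target of synaptic activity, was at 47.97, 38.98, 50.7, 50.7 and 48.8 CPM in the Bic 2 h libraries and at 8.84, 9.28, 13.01, 7.24 and 10.7 CPM in LP TTX/NMDA. Every LP TTX/NMDA library was below every Bic 2 h library, with a log2 fold change of -2.27 ± 0.0962 (SE; adjusted p = 4.9e-09). Pim1, a serine/threonine kinase that supports cell survival, went from 31.1, 22.2, 27.6, 30.5 and 34.5 CPM to 4.82, 8.35, 7.66, 6.21 and 4.82 CPM, with a log2 fold change of -2.19 ± 0.163 (SE; adjusted p = 2.1e-07). Csrnp1, an immediate early nuclear protein, went from 73.7, 70.4, 77.6, 72.99 and 63.05 to 15.4, 18.9, 17.95, 18.99 and 14.2 CPM, with a log2 fold change of -2.06 ± 0.064 (SE; adjusted p = 6.8e-10). For both genes the 5 lower libraries were all LP TTX/NMDA. Serpinb2, an inhibitor of plasminogen activators, fell from 3.17, 3.04, 3.08, 5.90 and 3.04 to 0.482, 0.336, 0.418, 0.223 and 1.77 CPM, with a log2 fold change of -2.43 ± 0.346 (SE; adjusted p = 5.6e-05). Its levels were low, and 1 library in each group stood apart upward (preparation 7 in Bic 2 h, preparation 8 in LP TTX/NMDA) without the groups overlapping.

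Kcna1, Dcc and Slit3 fell by similar factors. Kcna1, the voltage-gated potassium channel Kv1.1, had 149, 129.6, 157, 159 and 124 CPM in Bic 2 h and 28.5, 38.8, 48.1, 33.6 and 37.04 CPM in LP TTX/NMDA. Dcc, the netrin-1 receptor, had 37.1, 39.7, 46.3, 43.6 and 29.9 and then 8.34, 9.56, 10.9, 9.11 and 12.1 CPM. Slit3, a ligand of Robo receptors, had 139.8, 129.6, 174, 155 and 117 and then 32.3, 32.5, 40.7, 32.03 and 49.5 CPM. In these 3 genes the groups did not overlap, and the log2 fold changes were -1.95 ± 0.095, -1.95 ± 0.108 and -1.93 ± 0.109, with adjusted p = 1.1e-08, 2.5e-08 and 2.7e-08. Ptchd1, a patched-domain membrane protein, fell from 18.04 ± 1.07 to 4.53 ± 0.647 CPM (-1.99; mean ± SD, n = 5 libraries a group, here and below). Ankrd33b, an ankyrin repeat protein, fell from 98.7 ± 17.4 to 24.4 ± 5.67 CPM (-2.01), Rnf217, a ubiquitin ligase, from 173 ± 18.5 to 47.3 ± 7.98 CPM (-1.87), and Frmd6, a FERM-domain protein of the Hippo pathway, from 55.6 ± 7.001 to 15.6 ± 0.890 CPM (-1.81). Ptgs2, the inducible cyclooxygenase COX-2, was at 185, 210.3, 165, 151 and 51.97 CPM and then at 38.9, 51.5, 51.5, 30.7 and 24.6 CPM, with a log2 fold change of -1.87 ± 0.133 (SE; adjusted p = 1.4e-07), and its groups did not overlap, although Bic 2 h of preparation 8 was close to the highest LP TTX/NMDA libraries. The 3 provisional gene models that fell most were Gm49678 (-2.06), 5330416C01Rik (-1.71) and Gm10754 (-1.56).

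**Figure D2:**
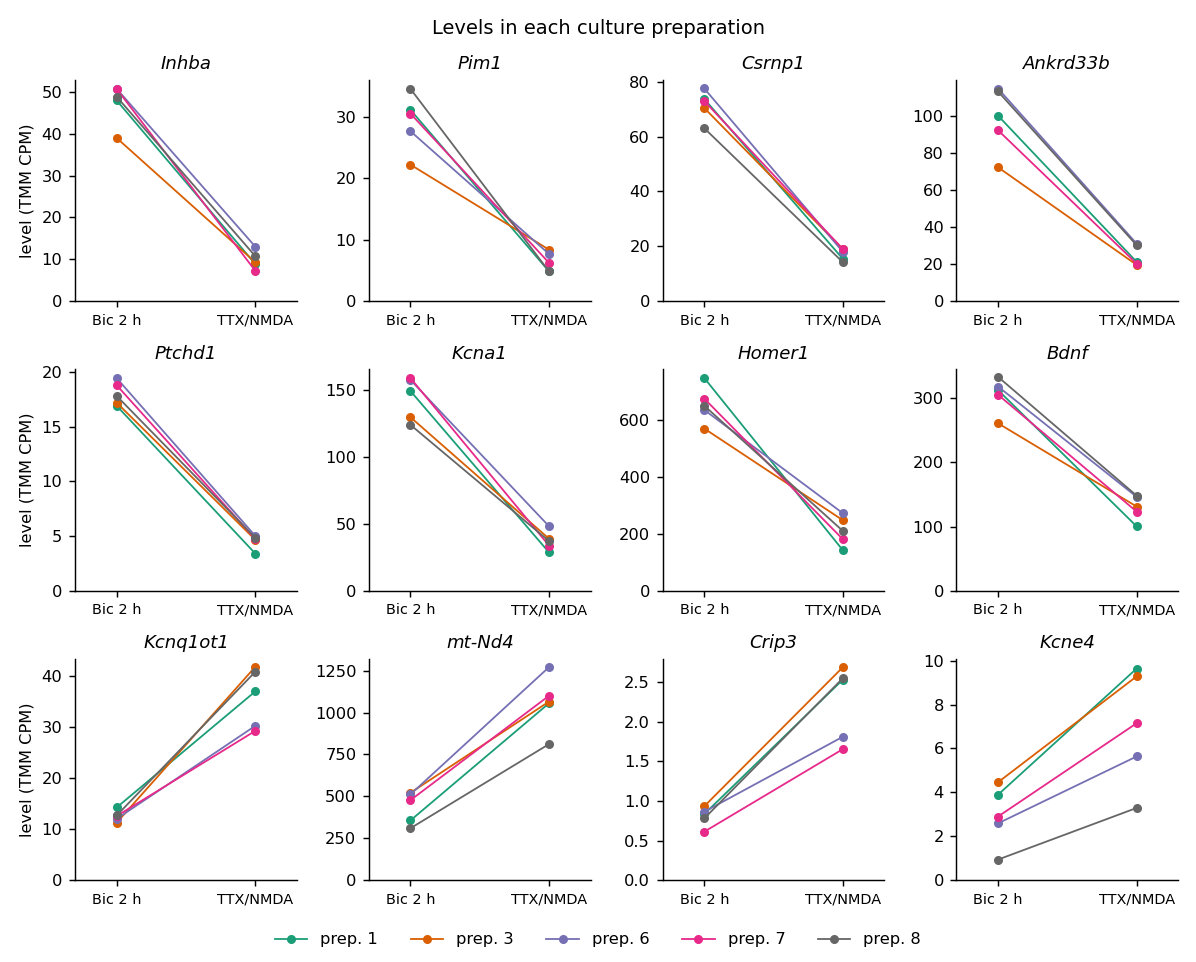
TMM-normalized CPM in Bic 2 h and LP TTX/NMDA for 12 named genes, with a line joining the 2 libraries of each culture preparation. Lines fall in all 5 preparations for Inhba, Pim1, Csrnp1 and Homer1, and rise in all 5 for Kcnq1ot1 and mt-Nd4.

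The 14 largest rises among annotated genes included noncoding and mitochondrial transcripts. Kcnq1ot1, the long noncoding RNA of an imprinted domain, which is transcribed antisense to Kcnq1 (counting used strand), was at 14.2, 11.3, 12.02, 12.6 and 12.7 CPM in Bic 2 h and at 36.9, 41.7, 30.2, 29.2 and 40.8 CPM in LP TTX/NMDA, with a log2 fold change of 1.51 ± 0.084 (SE; adjusted p = 2.5e-08). Of mitochondrial transcripts, mt-Nd4, a complex I subunit, was at 357, 522, 512, 478 and 310.4 CPM and then at 1056, 1065, 1271, 1100.1 and 812 CPM, with a log2 fold change of 1.31 ± 0.065 (SE; adjusted p = 1.1e-08). The 12S ribosomal RNA mt-Rnr1 rose from 421 ± 37.5 to 1057 ± 112 CPM (1.34) and the isoleucine tRNA mt-Ti from 0.769 ± 0.205 to 2.51 ± 0.738 CPM (1.71). For all 4 of these transcripts each LP TTX/NMDA library was above each Bic 2 h library. Mir99ahg, a long microRNA host transcript, rose from 5.196 ± 0.383 to 13.2 ± 2.17 CPM (1.35) and the noncoding RNA Dancr from 0.776 ± 0.311 to 1.95 ± 0.350 CPM (1.31).

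Several nuclear protein-coding genes among the largest rises started from low levels. Tlr4, the receptor for bacterial lipopolysaccharide, was at 0.723, 0.568, 0.483, 0.774 and 0.287 CPM in Bic 2 h and at 1.76, 1.74, 1.39, 1.39 and 1.25 CPM in LP TTX/NMDA, with a log2 fold change of 1.42 ± 0.198 (SE; adjusted p = 4.5e-05). Pdk4, a kinase that inhibits pyruvate dehydrogenase, was at 0.723, 0.974, 0.890, 1.39 and 0.944 and then at 3.01, 2.21, 1.39, 2.86 and 2.13 CPM, with a log2 fold change of 1.22 ± 0.173 (SE; adjusted p = 5.6e-05). Ptgds, the prostaglandin D2 synthase of glia and meninges, was at 4.06, 1.298, 1.04, 1.48 and 2.26 and then at 7.73, 5.81, 1.88, 5.23 and 2.602 CPM, with a log2 fold change of 1.22 ± 0.217 (SE; adjusted p = 0.00034). The groups did not overlap for Tlr4 and Pdk4, whereas for Ptgds they overlapped although each preparation was higher with TTX/NMDA. Kcne4, an accessory subunit of potassium channels, rose from 2.96 ± 1.35 to 6.999 ± 2.63 CPM (1.27), the small proteoglycan gene Ogn from 1.04 ± 0.616 to 2.46 ± 1.42 CPM (1.24), the LIM-domain gene Crip3 from 0.805 ± 0.121 to 2.24 ± 0.476 CPM (1.48) and Ccdc122 from 0.788 ± 0.188 to 1.89 ± 0.162 CPM (1.26). A pseudogene entry with the symbol Zkscan7 also rose (1.38), and its reads may be shared with the coding gene of that name.

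Immediate early transcription factors, the first genes that firing switches on, were mostly lower: of 25 tested, 21 fell and 1 rose (median log2 fold change -0.75), against 25.7% down and 30.9% up over all genes tested. Npas4, a neuron-specific factor induced by calcium entry, was at 2473, 2289.9, 2396, 2258 and 1702 CPM in Bic 2 h and at 867, 1008, 1026, 899 and 825 CPM in LP TTX/NMDA, with a log2 fold change of -1.24 ± 0.061 (SE; adjusted p = 1.1e-08). The orphan nuclear receptor gene Nr4a1 was at 973, 889, 1059.6, 869 and 743 and then at 556, 631, 656, 600.2 and 506 CPM, with a log2 fold change of -0.60 ± 0.053 (SE; adjusted p = 9.2e-07). Atf3, a stress- and activity-induced bZIP factor, was at 291, 219, 275, 228 and 253 and then at 86.6, 118, 118, 84.2 and 112 CPM, with a log2 fold change of -1.28 ± 0.091 (SE; adjusted p = 1.5e-07). In all 3 genes the highest LP TTX/NMDA library was below the lowest Bic 2 h library. Fos, the AP-1 subunit, was at 1647, 1652, 1748, 1518 and 1129 CPM and then at 974, 1271, 1203, 1009 and 876 CPM, with a log2 fold change of -0.51 ± 0.058 (SE; adjusted p = 7.6e-06). Egr1, a zinc-finger factor, was at 1665, 1323, 1712, 1338 and 1130.2 CPM and then at 804, 947, 943, 767 and 901 CPM, with a log2 fold change of -0.69 ± 0.082 (SE; adjusted p = 1.1e-05). Egr1 did not overlap between the groups, and Fos did, though it was lower in each of the 5 preparations. Nr4a3 (-1.26), Nr4a2 (-1.23), Egr3 (-1.22) and Fosb (-1.07) also fell, Klf2 rose (0.71), and Klf4 had 68.6, 95.6, 86.9, 64.5 and 33.6 CPM and then 66.4, 95.3, 69.9, 50.2 and 43.99 CPM (-0.06, adjusted p = 0.563).

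Among feedback regulators of MAP kinases, 14 of 19 fell and none rose (median -0.32), with the ERK phosphatase gene Dusp4 (-1.12) and the EGF receptor inhibitor gene Errfi1 (-0.96) lowest. Of the CREB pathway genes, 2 of 14 rose and 8 fell (median log2 fold change -0.31); the salt-inducible kinase genes Sik2 (-1.32) and Sik3 (-0.56) fell, while Creb1 itself (0.26) and Atf1 (0.40) rose. Creb1 lost its call without preparation 8 (0.14, adjusted p = 0.0568). Among mRNA decay and antiproliferative regulators, 6 of 19 rose and 3 fell (median log2 fold change 0.09), with rises of the AU-rich element binding protein gene Zfp36l1 (0.80) and of Tob1 (0.55) and falls of the deadenylase scaffold Cnot1 (-0.36) and of the decapping enzyme Dcp2 (-0.20).

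Of secreted factors and neuropeptides, 10 of 25 rose and 12 fell (median log2 fold change -0.13), and without the preparation block 3 rose and 10 fell. Bdnf, the neurotrophin that supports survival and synapse strengthening, was at 313, 261, 318, 306 and 333 CPM in Bic 2 h and at 100.3, 131, 146, 123 and 148 CPM in LP TTX/NMDA. All LP TTX/NMDA libraries were below all Bic 2 h libraries, with a log2 fold change of -1.23 ± 0.077 (SE; adjusted p = 5.8e-08). Nptx2, a pentraxin that clusters AMPA receptors, fell from 118 ± 34.6 to 37.9 ± 8.95 CPM (-1.61), as did Nptx1 (-1.29), Penk (-0.92) and Vgf (-0.56). The cytokine gene Lif (0.81) and the growth factor gene Fgf2 (0.79) rose, as did the interneuron peptide genes Npy (0.47) and Vip (0.38). The call of Npy was lost without the preparation block (adjusted p = 0.303).

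Genes of the synapse were lower on both sides of the cleft. The libraries are bulk RNA, in which fewer cells of a type and less RNA per cell cannot be told apart. Of 21 postsynaptic scaffold genes tested, 19 fell and none rose (median -0.55). Homer1, whose product links metabotropic glutamate receptors to scaffolds, was at 747, 569, 635, 674 and 649 CPM in Bic 2 h and at 142, 247, 272, 181 and 209.7 CPM in LP TTX/NMDA, with a log2 fold change of -1.65 ± 0.136 (SE; adjusted p = 4.8e-07) and no overlap between the groups. Camk2a, the alpha subunit of CaM kinase II, fell from 1194 ± 85.7 to 516 ± 94.3 CPM (-1.21), and Arc, an activity-induced endocytosis regulator, from 1012, 802, 987, 719.7 and 702 CPM to 556, 565, 599.6, 451 and 642 CPM, with a log2 fold change of -0.57 ± 0.080 (SE; adjusted p = 5.1e-05). Of genes for vesicle release, 21 of 27 fell and none rose (median -0.35), lowest being the vesicular glutamate transporter gene Slc17a7 (-0.97) and the active zone scaffold gene Bsn (-0.92). Of synaptic adhesion genes, 2 of 25 rose and 19 fell (median log2 fold change -0.43), with Pcdh8 (-1.46) and Pcdh20 (-1.13) lowest and the neuroligin gene Nlgn3 (0.59) and the neurexin gene Nrxn3 (0.17) higher. Nrxn3 lost its call without preparation 6 (0.17, adjusted p = 0.0524).

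Among glutamate receptor subunits, 4 of 22 rose and 14 fell (median log2 fold change -0.22), and without the preparation block 1 rose and 11 fell. The obligatory NMDA receptor subunit gene Grin1 fell from 604 ± 55.04 to 365 ± 20.9 CPM (-0.71) and Grin2b from 645 ± 59.7 to 412 ± 47.9 CPM (-0.64), whereas Grin2c (0.59) and the metabotropic receptor gene Grm3 (0.31) rose; the calls of the latter pair were lost without the preparation block (adjusted p = 0.126 and 0.0939). Grin2c lost its call without preparation 1 (0.44, adjusted p = 0.0722). Grm3 lost its call without preparation 7 (0.26, adjusted p = 0.0512). Of GABA-A receptor genes, 1 of 13 rose and 6 fell (median log2 fold change -0.16), with falls of Gabrb1 (-0.74) and Gabrb2 (-0.63) and a rise of Gabrg1 (0.35); without preparation 1, or without preparation 7, 2 rose. Of 47 potassium channel genes, 33 fell and 3 rose (median -0.32); besides Kcna1, Kcnh1 fell (-1.01), and the glial inward rectifier gene Kcnj10 (0.87) and Kcns3 (0.41) rose. Of sodium and calcium channel genes, 3 of 29 rose and 21 fell (median log2 fold change -0.42), with falls of the R-type gene Cacna1e (-0.93) and the L-type gene Cacna1c (-0.93) and rises of Gem (0.65), an inhibitor of calcium channels, and Cacng2 (0.38), which encodes stargazin.

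Genes that clear calcium from the cytosol fell with them: of 17 pumps, exchangers and uniporter genes, 12 fell and 2 rose (median -0.36). The sodium/calcium exchanger gene Slc8a1 fell from 117 ± 13.2 to 41.9 ± 6.45 CPM (-1.47) and the plasma membrane pump gene Atp2b3 from 144 ± 11.7 to 60.2 ± 5.08 CPM (-1.25), while the mitochondrial exchanger gene Slc8b1 (0.64) and Micu2 (0.22) rose. Of calpains, TRPM channels and PARP1, 2 of 15 rose and 8 fell (median log2 fold change -0.17), including falls of Trpm3 (-1.20) and Capn5 (-0.90) and rises of the calpain inhibitor gene Cast (0.71) and of Trpm7 (0.34).

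Genes of mitochondrial respiration and protein synthesis rose in large numbers, the nuclear-encoded ones mostly by small amounts. All 7 mitochondrially encoded mRNAs tested rose (median 1.08), with mt-Nd4 and mt-Cytb (1.13) highest; the other 6 were listed at 0 in all 10 libraries. Of nuclear genes for the respiratory chain, 60 of 78 rose and 3 fell (median log2 fold change 0.30), led by Ndufb4 (0.76) and Atp5l (0.66), and the falls included Atp5g2 (-0.19) and Atp5a1 (-0.13). The number called down was 0 without the preparation block, 0 without preparation 3 and 1 without preparation 6. Of 77 cytosolic ribosomal protein genes, 70 rose and none fell (median 0.31), led by Rpl39 (0.58) and Rps24 (0.53); many such genes have near-identical processed pseudogenes, so their counts are uncertain. Among glycolysis and glucose uptake genes, 2 of 22 rose and 11 fell (median log2 fold change -0.21), and the neuronal glucose transporter gene Slc2a3 fell from 595 ± 29.2 to 285 ± 16.8 CPM (-1.05) and Slc2a1 by 0.62 on the log2 scale, while Aldoc (0.65) and Ldhb (0.19) rose. Of cholesterol synthesis and uptake genes, 19 of 23 fell and 1 rose (median -0.32), among them the sterol carrier gene Stard4 (-0.75); the 1 that rose was Acat2 (0.15), whose call was lost under 8 of 11 alternatives, preparations 1 and 6 left out among them (0.14 and 0.11). Atp5g2 lost its call without preparation 8 (-0.17, adjusted p = 0.0634). Ldhb lost its call without preparation 7 (0.16, adjusted p = 0.0524). The calls of Atp5g2, Atp5a1, Ldhb and Acat2 were lost without the preparation block (adjusted p = 0.0637, 0.0737, 0.0913 and 0.325).

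Most stress and death lists held members called in both directions, as did all genes tested (30.9% up and 25.7% down). Mixed calls alone therefore do not set these lists apart, and the BCL2 and caspase shares (29.2% each way) were near those over all genes. Of BCL2 family and caspase genes, 7 of 24 rose and 7 fell (median log2 fold change 0.03), including a rise of the initiator caspase gene Casp8 (1.12) and a fall of the BH3-only gene Hrk (-0.54). Of p53 targets and Gadd45 genes, 10 of 21 rose and 5 fell (median log2 fold change 0.12); Eda2r (1.12) and Trp53inp1 (1.09), both p53 targets, rose, and Gadd45b (-0.68) and Plk2 (-0.66) fell. Of NRF2-linked redox genes, 10 of 20 rose and 1 fell (median log2 fold change 0.08), with Nqo1 (0.62) and the heme oxygenase gene Hmox1 (0.62) highest and Gclc (-0.16) lower; 3 fell without preparation 7, 2 without preparation 1 and 0 without preparation 6. The call of Gclc was lost without the preparation block (adjusted p = 0.0748) and without preparation 6 (-0.15, adjusted p = 0.0643). Of integrated stress response genes, 9 of 27 rose and 8 fell (median log2 fold change -0.07), shares near those over all genes. The counts were 3 and 4 without the preparation block, and 5 and 14 without preparation 3. In that list the cystine transporter gene Slc7a11 (0.74) and Gdf15 (0.67) rose, and Stc2 (-0.63) and the phosphatase subunit gene Ppp1r15a (-0.63) fell.

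For ER chaperones, 7 of 18 rose and 4 fell (median log2 fold change 0.09), with Creld2 (0.51) and Pdia4 (0.35) higher and Hyou1 (-0.40) and Sel1l (-0.22) lower; 4 rose without preparation 6, and 2 fell without the preparation block. For cytosolic heat shock genes, 3 of 16 rose and 8 fell (median log2 fold change -0.14), with the HSP70 gene Hspa1b (-1.11) and Hspa4l (-0.51) lower and the co-chaperone gene Bag3 (0.86) and Cryab (0.59) higher; Hspa1b and Hspa1a (-0.37) are near-identical copies, and reads matching both were not counted. Without preparation 1, 5 heat shock genes rose. For NF-kappaB and inflammatory genes, 5 of 13 rose (3 without the preparation block) and 5 fell (median log2 fold change -0.02): Ptgs2 and Rel (-0.83) fell and the chemokine genes Cxcl10 (1.42) and Ccl2 (0.76) rose, while Il6, Il1b, Tnf, Ccl4 and Cxcl2 were too low to test.

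Nuclear and cytoskeletal lists held members called in both directions, as did all genes tested (30.9% up and 25.7% down), so mixed calls alone do not set them apart. Of SR splicing factor and CLK kinase genes, 10 of 20 rose and 1 fell (median log2 fold change 0.16), with Clk1 (0.51) and Srsf10 (0.36) highest and Srrm2 (-0.19) lower. Srrm2 lost its call without preparation 6 (-0.16, adjusted p = 0.0562). Of core clock genes, 6 of 19 rose and 7 fell (median log2 fold change -0.10); the cAMP-inducible Per2 fell from 41.04 ± 10.4 to 16.7 ± 2.903 CPM (-1.26) and Per1 from 331 ± 16.2 to 173 ± 16.6 CPM (-0.93), while Rorb (1.01) and Bhlhe41 (0.74) rose. Of MEF2 factors and chromatin regulators, 5 of 21 rose and 10 fell (median log2 fold change -0.12), with falls of the DNA demethylase gene Tet3 (-0.61) and Mef2d (-0.57) and rises of the DNA methyltransferase gene Dnmt3b (0.92) and Mef2b (0.78); 3 rose without preparation 6 and 3 by DESeq2. Dnmt3b lost its call without preparation 3 (0.79, adjusted p = 0.0734) and without preparation 6 (0.68, adjusted p = 0.0726), and by DESeq2 (adjusted p = 0.0578). Mef2b lost its call without preparation 6 (0.64, adjusted p = 0.11) and without preparation 8 (0.70, adjusted p = 0.0683). Of SRF and actin genes, 5 of 21 rose and 6 fell (median log2 fold change 0.08), with Srf (-0.92) and Actg1 (-0.57) lower and Tagln2 (0.68) and Tpm2 (0.52) higher; 2 rose without the preparation block and 3 without preparation 7. Tpm2 lost its call without preparation 1 (0.38, adjusted p = 0.0737) and without preparation 7 (0.40, adjusted p = 0.0934). The calls of Mef2b and Tpm2 were lost without the preparation block (adjusted p = 0.176 and 0.0572). Over all 36 lists, 282 of 790 distinct members tested rose (35.7%) and 312 fell (39.5%).

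**Figure D3:**
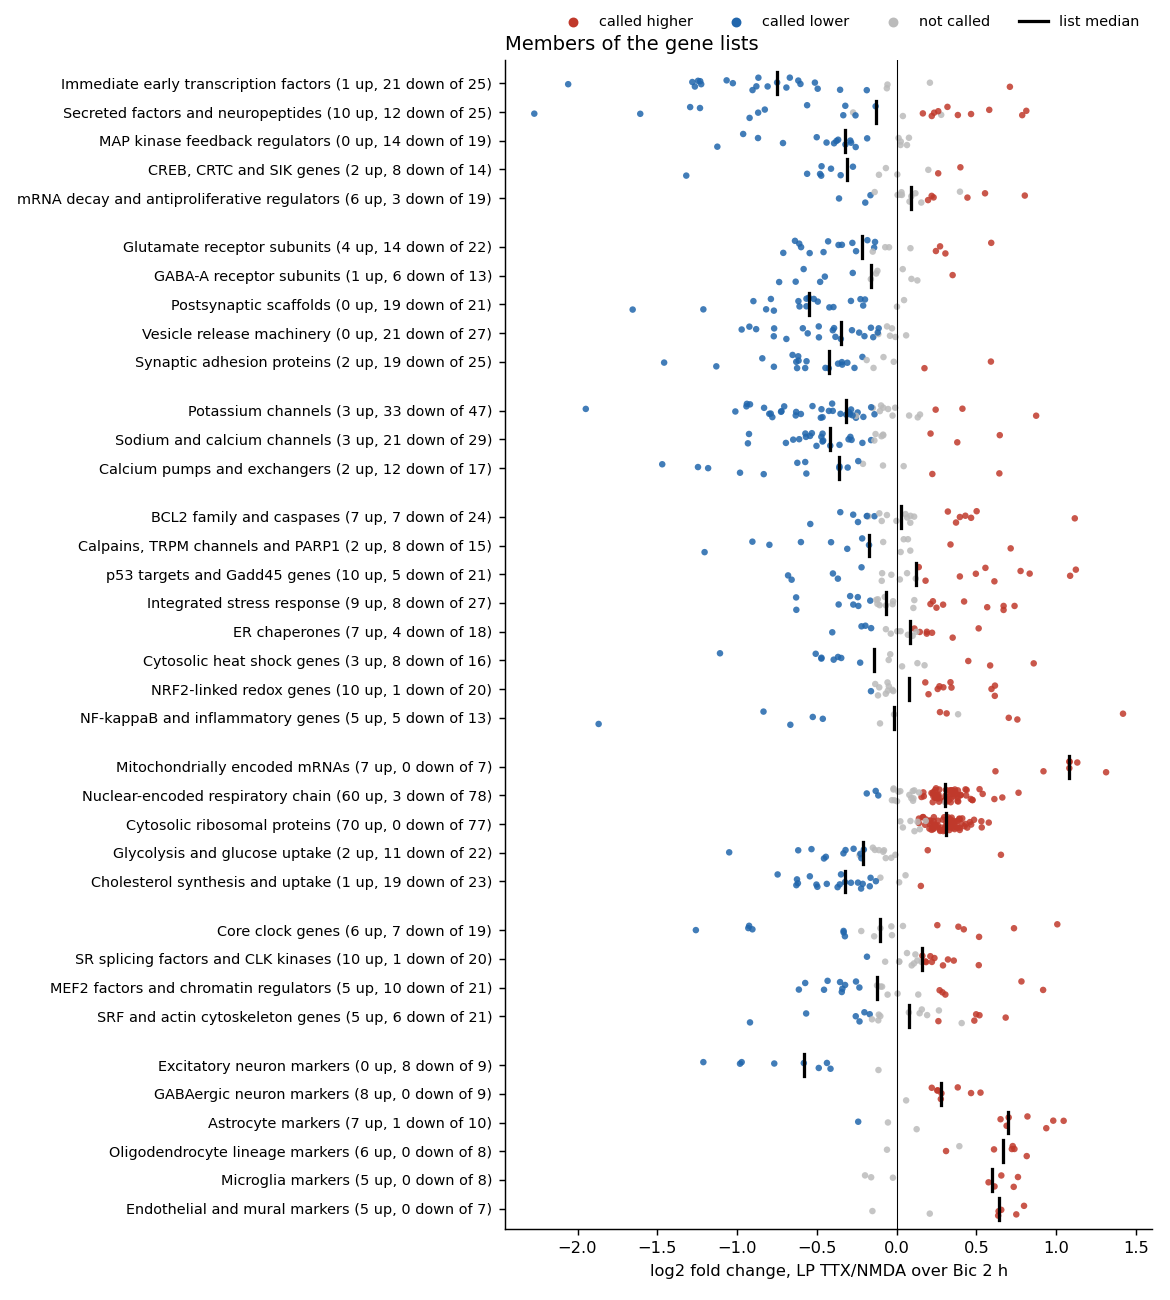
Log2 fold change of LP TTX/NMDA against Bic 2 h for each tested member of the 36 gene lists (points), coloured by call, with a black bar at the median of each list and a line at 0. Postsynaptic scaffold and vesicle release genes lie mostly below 0, and mitochondrial, respiratory chain and ribosomal protein genes mostly above it.

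Gene models placed within introns were called up in a larger share than genes as a whole. Ensembl lists short unspliced entries (the types TEC and sense intronic) that lie inside an intron of a longer gene on the same strand, so reads on them can come from a separate RNA or from unspliced host RNA. Of 198 such models tested (hosts at least 5 times longer, no exon overlap), 106 rose (53.5%) and 14 fell, with a median log2 fold change of 0.65, against 30.9% up over all genes. A gene entered the fit when enough libraries held reads, which the LP TTX/NMDA group alone could supply. Many of the models that rose were near 0 in Bic 2 h. The filter could thus raise their share called up, and by how much was not tested. Of 157 models of the same kinds with no longer gene over them, 61 rose and 10 fell (median 0.35). Models in introns took 0.0458 to 0.0481% of reads in Bic 2 h and 0.0616 to 0.0706% in LP TTX/NMDA, without overlap. Of the 104 that rose and whose host was tested, the host fell for 64, rose for 16 and was not called for 24; these models lie in 81 distinct hosts.

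The 3 provisional models with the largest rises among those with a mean of at least 1 CPM were of this kind. They had few reads in Bic 2 h and entered the fit through the LP TTX/NMDA libraries. Gm44799, in the first intron of Fam155a, was at 0.278, 0.203, 0.0254, 0.290 and 0.123 CPM in Bic 2 h and at 4.22, 3.298, 3.201, 2.95 and 3.27 CPM in LP TTX/NMDA, with a log2 fold change of 4.26 ± 0.269 (SE; adjusted p = 6e-08). Gm44677, in intron 7 of the Dlg2 transcript with most exons (28), rose from 0.225 ± 0.0806 to 3.35 ± 0.164 CPM (3.97), and Gm42970, in intron 2 of Ank2, from 0.208 ± 0.0862 to 3.03 ± 0.345 CPM (3.93). None of their hosts was called up: the log2 fold change was -0.04 for Fam155a (adjusted p = 0.515), -0.77 for Dlg2 (adjusted p = 3.4e-07) and -0.34 for Ank2 (adjusted p = 0.00023).

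The intronic model with the largest fitted rise lies in Homer1, and was picked out after its values were seen. Gm47088 (chr13:93317427-93319065, GRCm38, plus strand) lies in the first intron of Homer1, 9067 bases after the nearest upstream exon. Its counts were 1, 0, 0, 1 and 0 in the Bic 2 h libraries and 70, 84, 13, 42 and 43 in LP TTX/NMDA, or 1.69, 1.66, 0.905, 1.88 and 1.19 CPM in the latter. Pooled, 2 reads stood against 252, a depth-corrected ratio of 105 (95% exact interval 28.7 to 871, counting error only). The model entered the fit through the LP TTX/NMDA libraries alone and was chosen by these values. The interval therefore describes the counts and is not a test. Homer1 as a gene fell by 1.65 on the log2 scale in the same libraries. In the other groups Gm47088 was at 0.179 to 0.384 CPM in SP TTX/NMDA, 0.0586 to 0.428 CPM in LP TBOA and 0.207 ± 0.0853 CPM in Bic 1 h. It had no reads in the 5 LP TTX libraries or the 5 controls, which allows up to 0.0148 and 0.0229 CPM over each pooled group. Against LP TBOA the log2 fold change of Gm47088 was 2.62 ± 0.284 (adjusted p = 6.3e-05). That comparison shares the LP TTX/NMDA libraries by whose values the model was chosen, so it gives no separate support.

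Markers of cell types shifted with treatment, and those of neurons were abundant in both groups. Of excitatory neuron markers, 8 of 9 fell and none rose (median -0.58), and their summed level was 2548 to 3034 CPM in Bic 2 h and 1211 to 1696 CPM in LP TTX/NMDA, without overlap; Camk2a, Tbr1 (-0.98) and Slc17a7 (-0.97) fell most. Of GABAergic neuron markers, 8 of 9 rose (5 without the preparation block) and none fell (median 0.28), with Dlx2 (0.53) and Npy (0.47) highest and overlapping sums of 2738 to 3824 CPM in Bic 2 h and 3168 to 4578 CPM in LP TTX/NMDA. Of astrocyte markers, 7 of 10 rose and Slc1a2 fell (-0.24; median 0.70); the water channel gene Aqp4 (1.05) and the gap junction gene Gja1 (0.98) rose most, and the sums overlapped (1267 to 1708 CPM in Bic 2 h and 1388 to 2296 CPM in LP TTX/NMDA). Of oligodendrocyte lineage markers, 6 of 8 rose (median 0.67), including Olig1 (0.74), with sums of 147 to 207 CPM in Bic 2 h and 177 to 346 CPM in LP TTX/NMDA. Of microglia markers, 5 of 8 rose (median 0.59), led by C1qb (0.76) and Cx3cr1 (0.73), with sums of 11.6 to 17.7 CPM in Bic 2 h and 16.4 to 23.6 CPM in LP TTX/NMDA. Of endothelial and mural markers, 5 of 7 rose (2 without the preparation block; median 0.64), led by Rgs5 (0.80) and Flt1 (0.75), with sums of 19.3 to 35.9 CPM in Bic 2 h and 30.3 to 42.5 CPM in LP TTX/NMDA. The calls of Cx3cr1 and Flt1 were lost without the preparation block (adjusted p = 0.0979 and 0.143). Cx3cr1 also lost its call without preparation 1, 6 or 7 (0.61, 0.65 and 0.72). No marker of these 6 lists was at 0 in all 10 libraries, though Sox10, Mog, P2ry12, Itgam, Cldn5, Tek and Kcnj8 were too low to test. The part of these marker shifts in the synaptic, channel and glial results was not tested.

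To see what became of genes that were already induced when the toxic treatment began, genes were taken that rose in Bic 1 h against control, 2 groups that share no library with the comparison (618 of 15184 genes called, 4.07%). Of the 443 genes induced by 1 h of Bic, 285 were lower in LP TTX/NMDA than in Bic 2 h (64.3%) and 62 were higher (14%), with a median log2 fold change of -0.37. Among the 14535 genes not called in Bic 1 h against control, 25.96% were lower and 30.8% higher. Of the 175 genes that Bic lowered within 1 h, 104 were higher (59.4%) and 12 lower. For the same 443 genes the median was -0.26 in LP TTX and -0.14 in LP TBOA, each against the same Bic 2 h libraries. For the 121 genes induced at least 2-fold by 1 h of Bic the order of the first 2 turned. Their median was -0.57 in LP TTX/NMDA, -0.63 in LP TTX and -0.19 in LP TBOA. The LP TTX/NMDA mean was below the Bic 1 h mean for 218 of the 443 and below the control mean for 46.

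Against untreated control, levels after LP TTX/NMDA differed by gene. Inhba was at 7.73 ± 0.448 CPM in control, 10.4 ± 1.25 in Bic 1 h, 47.5 ± 4.88 in Bic 2 h and 9.82 ± 2.18 in LP TTX/NMDA. Homer1 was at 109 ± 7.805, 167 ± 24.96, 655 ± 64.4 and 210.3 ± 51.7 CPM, and Bdnf at 107 ± 23.6, 174 ± 24.4, 306 ± 27.3 and 129.9 ± 19.5 CPM. The LP TTX/NMDA values of Inhba (7.24 to 13.01 CPM) and Bdnf (100.3 to 148 CPM) overlapped the control values (7.204 to 8.18 and 81.5 to 143 CPM), and those of Homer1 (142 to 272 CPM) lay above them (97.6 to 118 CPM). Npas4 was above control (47.1 ± 15.2 CPM in control and 925 ± 88.3 CPM in LP TTX/NMDA), as did Nr4a1 (47.2 ± 9.91 and 589.8 ± 59.7 CPM). By contrast, Dcc, Slit3 and Ptchd1, whose LP TTX/NMDA libraries were all below all controls, had control levels of 37.4 ± 12.2, 109.5 ± 31.6 and 6.67 ± 1.11 CPM, set beside LP TTX/NMDA levels of 9.99 ± 1.49, 37.4 ± 7.68 and 4.53 ± 0.647 CPM. Of the 190 genes that fell at least 2-fold, 117 had risen in Bic 2 h against control (14.4% of 15269 genes were called up in that comparison), and all 5 LP TTX/NMDA values lay below all 5 control values for 67 and above them for 34. Of the 309 genes that rose at least 2-fold, 185 had all LP TTX/NMDA values above all control values. Among all 4100 genes called down, the values lay all below control for 1242 and all above for 210. Among all 4927 called up, they lay all above for 1176 and all below for 140. The counts over all genes tested are not given here, so whether these are unusual cannot be told. These counts share the Bic 2 h or the LP TTX/NMDA libraries with the calls and are given as a description.

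**Figure D4:**
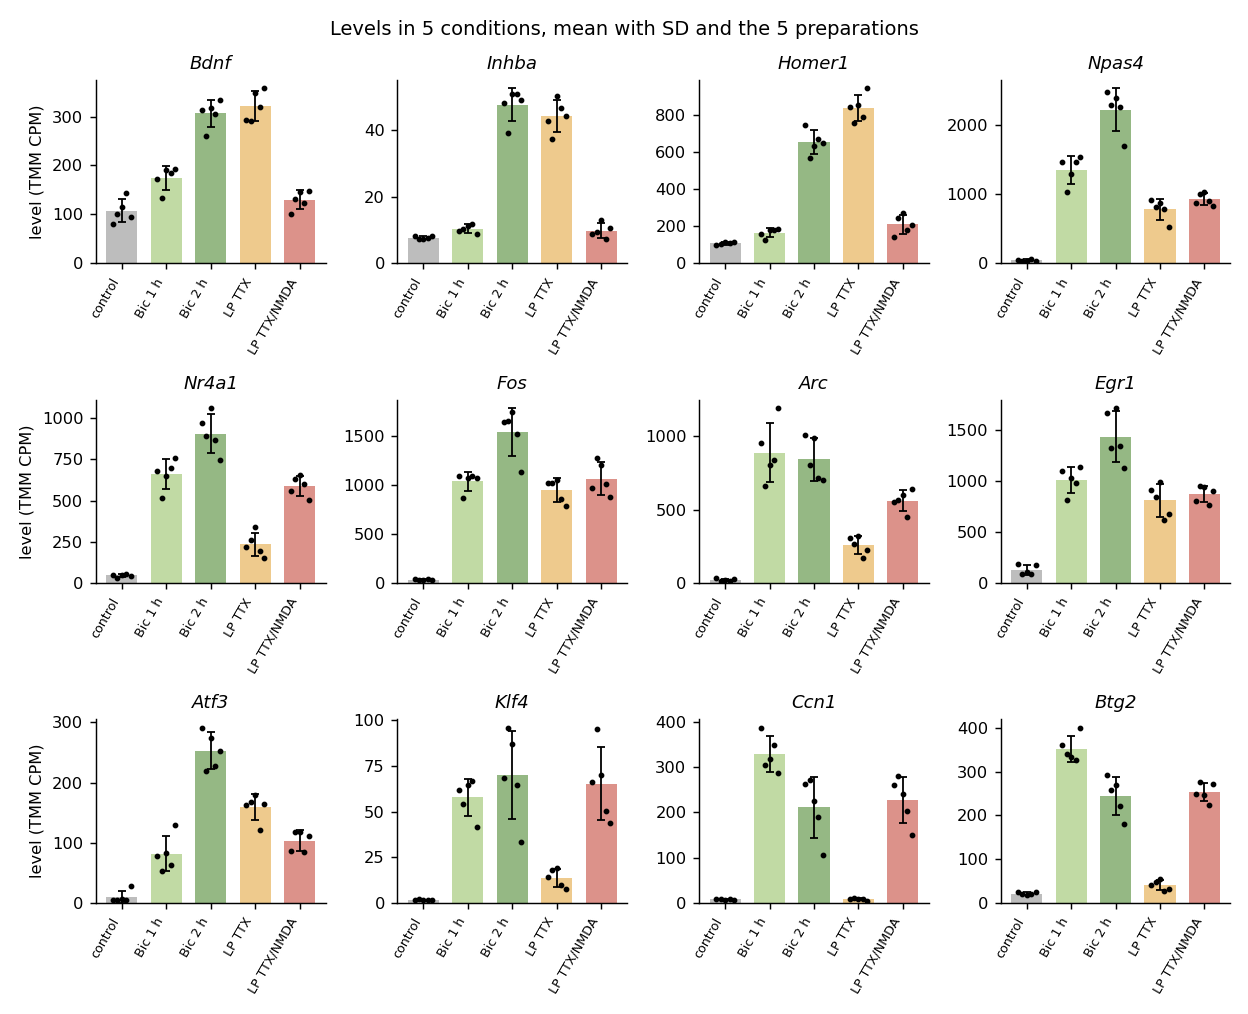
TMM-normalized CPM of 12 genes in control, Bic 1 h, Bic 2 h, LP TTX and LP TTX/NMDA; bars are means, error bars the SD and points the 5 preparations. Inhba, Homer1 and Bdnf in LP TTX/NMDA lie closer to control than to Bic 2 h, while Klf4, Ccn1 and Btg2 lie near Bic 2 h and are low in LP TTX.

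The short protocol, in which TTX and NMDA were added after 0.5 h of Bic for 0.5 h, was set against Bic 1 h and shares no library with the long one, though it comes from the same preparations. There 4217 of 15435 genes were called (27.3%). Of 15376 genes tested in both, 8808 were called in the long protocol, 4215 in the short one and 3817 in both, of which 3795 had the same sign (99.4%); the shared calls are 90.6% of those of the short protocol and 43.3% of those of the long one. The median absolute log2 fold change was 0.13 in the short and 0.24 in the long protocol, and fold changes correlated across genes at r = 0.74 (15376 genes, which are not independent, with preparations shared). The difference of the 2 effects, tested as an interaction over 20 libraries, was called for 3089 of 16152 genes (19.1%), 1301 upward and 1788 downward. Without the preparation block it was called for 226 upward and 506 downward, and without preparation 3 it was called for 784 downward. Of 3023 called genes tested in both protocols, 2617 were further from 0 in the long protocol with the same sign, 348 had opposite signs and 58 were nearer to 0.

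Inhba, Pim1 and Homer1 had the larger fall in the long protocol, and several immediate early genes in the short one. Inhba had a log2 fold change of -2.27 in the long and -0.72 in the short protocol, a difference of -1.56 ± 0.154 (adjusted p = 1.8e-06). Pim1 had -2.19 and -0.46, a difference of -1.78 ± 0.272 (adjusted p = 0.00021), and Homer1 -1.65 and -0.79, a difference of -0.86 ± 0.172 (adjusted p = 0.00181). Insm1, a neurogenic zinc-finger factor, had -1.21 in the long and 0.45 in the short protocol, a difference of -1.76 ± 0.221 (adjusted p = 2.4e-05). In the opposite direction, Arc had -0.57 and -1.88, a difference of 1.28 ± 0.191 (adjusted p = 0.00017), and Nr4a1 -0.60 and -1.68, a difference of 1.06 ± 0.168 (adjusted p = 0.00028). The difference was also upward for Fos, at 0.95 ± 0.152 with adjusted p = 0.00033, for Egr1, at 0.66 ± 0.150 with adjusted p = 0.0042, and for Atf3, at 1.01 ± 0.240 with adjusted p = 0.00568, the last of which lost its call without the preparation block (adjusted p = 0.083). For Bdnf, at -1.23 and -1.14, the difference was -0.10 ± 0.114 (adjusted p = 0.58), and for Npas4, at -1.24 and -1.67, it was 0.42 ± 0.151 (adjusted p = 0.0562; 0.57 and adjusted p = 0.0123 without preparation 3).

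The 3 genes with the largest upward difference, among annotated genes with a mean of at least 1 CPM, were Klf4, Ccn1 and Btg2, a transcription factor, a matricellular protein and an antiproliferative factor. Klf4 was at 61.7, 54.3, 64.6, 66.7 and 41.8 CPM in Bic 1 h and at 7.24, 18.8, 12.7, 14.2 and 5.89 CPM in SP TTX/NMDA, whereas the values in Bic 2 h and LP TTX/NMDA, given above, overlapped. Its log2 fold changes were -2.36 in the short and -0.06 in the long protocol, a difference of 2.29 ± 0.209 (adjusted p = 6.7e-07). Ccn1 had -1.82 and 0.16 (difference 1.92 ± 0.203 with adjusted p = 2.9e-06) and Btg2 -1.70 and 0.08 (difference 1.75 ± 0.152 with adjusted p = 5e-07). In the long protocol neither Klf4, Ccn1 nor Btg2 was called with all 5 preparations (adjusted p = 0.563, 0.0559 and 0.449). Klf4 was called down without preparation 8 (-0.17, adjusted p = 0.0325) and Ccn1 up without preparation 1 (0.20, adjusted p = 0.0169).

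**Figure D5:**
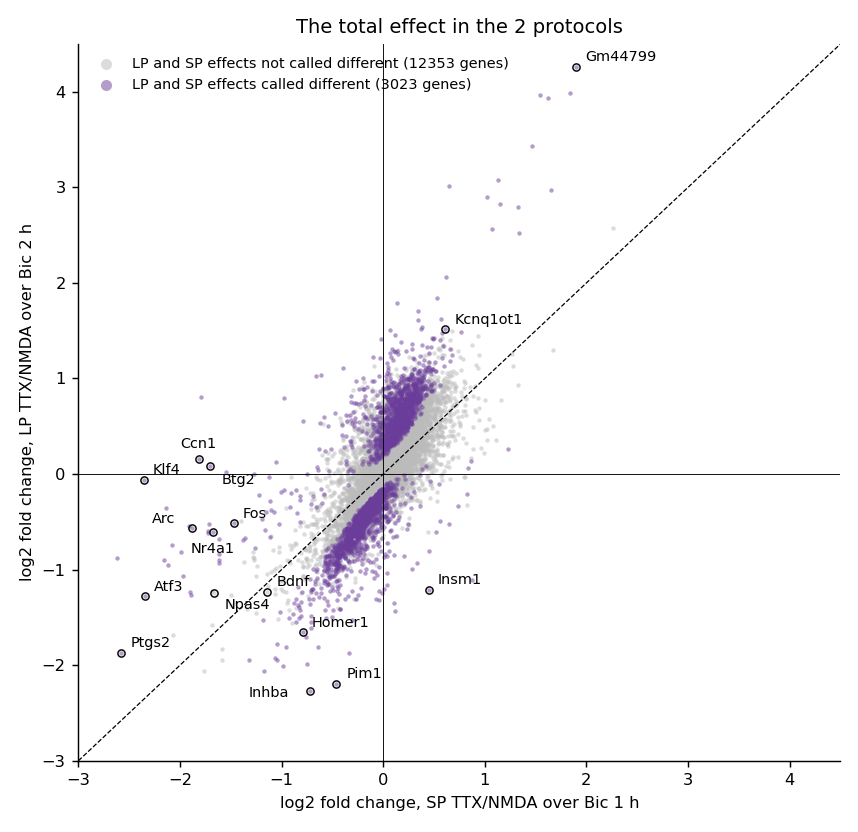
Log2 fold change of TTX/NMDA in the long protocol (LP TTX/NMDA against Bic 2 h, vertical) against the short protocol (SP TTX/NMDA against Bic 1 h, horizontal), 1 point for each of 15376 genes, purple where the 2 effects were called different (3023 genes). Klf4, Ccn1 and Btg2 lie near 0 on the vertical axis and far below 0 on the horizontal one, and Inhba and Pim1 lie lower on the vertical axis.

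To separate added NMDA from the stop in firing, LP TTX/NMDA was compared with LP TTX, since TTX blocks action potentials in both. Of 16399 genes tested, 10184 were called (62.1%), 5510 upward and 4674 downward. Inhba was at 44.1 ± 4.76 CPM in LP TTX, a log2 fold change of -2.16 ± 0.079 with NMDA (adjusted p = 2.3e-12), and Homer1 was at 839.6 ± 71.5 CPM (-2.01). Among the named genes the zinc-finger gene Klf10 (-2.89), Inhba and Ankrd33b (-2.09) fell most. Several immediate early genes were higher with NMDA than with TTX alone: Nr4a1 was at 220.1, 263, 343, 193 and 154 CPM in LP TTX, below every LP TTX/NMDA library (1.40). Ccn1 was at 8.97, 10.4, 8.29, 8.51 and 4.898 CPM in LP TTX and at 261, 281, 239.7, 204 and 150.1 CPM in LP TTX/NMDA (4.80, adjusted p = 3.7e-19). Btg2 (2.71), Klf4 (2.30) and Arc (1.17) also rose, as did the small nucleolar RNA Snora31 (2.56), and Npas4 had 0.28 (adjusted p = 0.00222). These values share the LP TTX/NMDA libraries with the comparison against Bic 2 h and are not independent of it.

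Against LP TBOA, in which glutamate uptake was blocked and no TTX was added, 7691 of 16216 genes were called (47.4%), 4064 upward (2649 without the preparation block) and 3627 downward. Kcnq1ot1 (1.45), Dancr (1.32) and mt-Ti (1.30) were the annotated genes furthest up and Dcc (-1.76), the protease gene Adamts3 (-1.74) and Serpinb2 (-1.74) furthest down among those named by the rule. Dcc was at 35.6, 39.2, 26.1, 35.7 and 29.7 CPM in LP TBOA and at 8.34, 9.56, 10.9, 9.11 and 12.1 CPM in LP TTX/NMDA. Kcnq1ot1 was at 14.8, 16.8, 10.7, 10.8 and 12.1 CPM in LP TBOA and at 36.9, 41.7, 30.2, 29.2 and 40.8 CPM in LP TTX/NMDA. For Dcc and Kcnq1ot1 the 2 groups did not overlap.

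Fold changes varied with gene length. Among coding genes ordered by genomic length in 5 groups of 2795 or 2796, the median log2 fold change was 0.14 in the shortest group (median 4961 bases), 0.10, 0.07, -0.01 and -0.13 in the longest (median 146882.5 bases). The share called down was 16.1% in the shortest and 45.3% in the longest group and the share called up was 39.1% and 21.4%. By exonic length the medians were 0.21 in the shortest and -0.11 in the longest group. Genes are not replicates, and this is a description of the fitted values.

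Promoter sequences were available in RefSeq for 11653 of 15942 tested symbols. A gene with several promoter entries was counted once, as holding a motif where any of them did, so the shares are of genes. The CRE (TGACGTCA, its own reverse complement) was in 3.52% of these genes, in 4.37% of those called down and in 2.88% of those called up. Its core (TGACG, which every CRE also holds, both strands) was in 34.3%, 38.6% and 29.9%, and in 23% of all 27025 gene symbols with a promoter entry. For genes changed at least 2-fold the CRE core was in 38.1% of 126 genes with an entry that fell and 16.5% of 127 that rose. The NPAS4 core (TCGTG) was in 24%, 24.6% and 22.4% of all, fallen and risen genes with an entry, and the EGR site (GCGTGGGCG) in 1.40%, 1.96% and 1.35%. The AP-1 site (TGANTCA) was in 6.18%, 5.83% and 6.41%, the amino acid response element (TGATGNAAN) in 2.78%, 2.70% and 2.49%, and the serum response element in 1.6%, 1.86% and 1.41%. Among genes changed at least 2-fold, the NPAS4 core was in 23.8% of those that fell and 11.8% of those that rose. In the same order the EGR site was in 3.97% and 0.787%, and the AP-1 site in 8.73% and 11.8%. The amino acid response element was in 5.56% and 4.72%, and the serum response element in 2.38% and 0%. Of the 14 genes with the largest falls, 10 had a promoter entry, 3 of these held the CRE core and 0 the full CRE. Of the 14 with the largest rises, 8 had an entry, 3 of these held the core and 0 the full CRE. No test was made on these shares, and a missing match says only that the letters are absent from these 300 bases.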

How the data were processed

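RNA was sequenced from 45 mouse hippocampal culture libraries, of which the 10 of LP TTX/NMDA and Bic 2 h form the main comparison. The deposited values are raw read counts per gene, which the authors made from polyadenylated RNA in strand-specific libraries (75 sequencing cycles, single-end) with bcl2fastq 2.20.0.422, STAR 2.5.4b on GRCm38 with Ensembl 94 genes, and featureCounts 1.6.5, which counted sense reads that matched 1 place and 1 gene. Such counts leave out repeats and shared exons, and intronic reads are counted only where a separate gene model lies in the intron.

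Genes kept by filterByExpr were tested with edgeR 4.0.16 in R 4.3.3 (TMM scaling, quasi-likelihood F test, preparation number as a block), p-values were adjusted by Benjamini-Hochberg over all genes of the fit, and genes under 0.05 were called. Adjusted p-values given are from these fits, except those stated for no preparation block, a left-out preparation or DESeq2, which are from the fit named. Levels are CPM with TMM factors over all 45 libraries, and ratios per preparation used a pseudocount of 0.1 CPM. Libraries of 1 number come from 1 culture preparation; after subtracting group means, same-numbered libraries of the main comparison correlated at 0.23 to 0.55 (mean 0.45) and differently numbered ones at -0.11. Against LP TBOA the value for preparation 6 was -0.14. The 10 libraries hold 13467115 to 48077885 counted reads, so genes under 1 CPM rest on few reads.

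Named genes are the 14 largest changes each way among annotated genes and the 3 largest each way among provisional models. These were called, with 1 sign in all 5 preparations and a mean of at least 1 CPM. Added were up to 2 members each way per gene list, which had only to be called. Up to 3 annotated genes each way in the other comparisons had to be called there, with a mean of at least 1 CPM. The 9 activity genes were named in every case. The comparison, the members and the 36 gene lists were chosen with earlier results of these data known. Other genes named within a list are examples picked after their values were seen. Gene models were placed with GENCODE M21 (GRCm38). Fits were also run on simulated counts with known changes, and the outcome is not given here. Alternatives were no preparation block, no filter, RLE scaling, DESeq2 1.42.0, all 45 libraries in 1 fit and leaving out each preparation. Some genes of the lists are counted but not reported here by name.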

Additional observations from a re-analysis of the deposited data

Results flagged for a closer look

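For the 46 genes with library values, each group of 5 was searched for 1 library far from the others by Dixon's ratio (critical value 0.71), and 6 of 92 groups had one; chance gives about 1 in 20 groups. Serpinb2 was at 5.90 CPM in Bic 2 h of preparation 7, against 3.17 CPM in the next library. Serpinb2 was also at 1.77 CPM in LP TTX/NMDA of preparation 8, against 0.482 CPM in the next. Inhba was at 38.98 CPM in Bic 2 h of preparation 3, below the next library at 47.96 CPM. Ptchd1 was at 3.40 CPM in LP TTX/NMDA of preparation 1, below the next at 4.66 CPM. Gm44799 was at 4.22 CPM in LP TTX/NMDA of preparation 1, above the next at 3.298 CPM. Npas4 was at 1702 CPM in Bic 2 h of preparation 8, below the next at 2258 CPM. In none of these 5 genes did the groups of Bic 2 h and LP TTX/NMDA overlap.

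The effect of TTX/NMDA differed between the long and the short protocol, by the interaction test of edgeR over 20 libraries, for 12 of the 14 genes in which it was examined by name. Klf4, Ccn1, Btg2, Pim1 and Insm1 were among the 14 because they had the largest called differences, so their calls were fixed by that choice. Over all genes tested the difference was called for 3089 of 16152 (19.1%). On the log2 scale, long minus short, it was -1.56 for Inhba, -0.858 for Homer1, -1.78 for Pim1 and -1.76 for Insm1, whose changes were lower in the long protocol. It was 1.06 for Nr4a1, 0.945 for Fos, 1.28 for Arc, 0.663 for Egr1 and 1.01 for Atf3, which fell more in the short protocol. It was 2.29 for Klf4, 1.92 for Ccn1 and 1.75 for Btg2, which fell in the short protocol and were not called in the long one. For Insm1 the change was upward in the short protocol (0.45, adjusted p = 0.00958) and downward in the long one (-1.21, adjusted p = 6.9e-06).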

How the results depend on the processing

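In the main comparison, 3697 (DESeq2) to 5285 genes (all 45 libraries) were called up and 3486 (no preparation block) to 4383 down, no called gene changed sign, and 138 of 159 named genes kept direction and call under each alternative; DESeq2 put 48.0% of its calls upward, against 54.6%. RLE scaling moved the median log2 fold change from 0.055 to 0.031. Counts of the gene lists that moved stand beside them only in part. With no block and all genes with a read, ER chaperones called up went from 7 to 2 and potassium channels from 3 to 1. Beyond the lists, the counts that moved by over 1.5 times without the preparation block were the long minus short difference (226 up and 506 down, or 144 and 371 with all genes with a read) and the genes called up against LP TBOA (2649). Of the 254 genes induced by Bic 1 h when that list was chosen with no block, 177 were lower and 31 higher. In the main comparison 12 of 159 named genes lost their call without the block, such as Acat2, Mef2b, Grin2c and Npy.

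Leaving out 1 preparation gave 4173 to 4714 genes up and 3626 to 4187 down in the main comparison. For the long minus short difference it gave 843 (without preparation 6) to 1116 up and 784 (without preparation 3; 939 without preparation 7) to 1717 down, and 54.5% of calls were upward without preparation 3, against 42.1%. Without the block 30.9% were. Klf4 ranged over -0.17 (called without preparation 8) to 0.0082 and Btg2, not called, over -0.053 to 0.16. Npas4 passed the test of that difference without preparation 3 (0.57) and with all genes with a read (0.40). The latter fit, with the block kept, was found in an earlier analysis of these data to miscall simulated data. Depth limited genes under 1 CPM and the gene models, where a library held few reads.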

Other observations

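Several gene families outside the lists are described here; they were picked after their values were seen, so their counts are a description without a test. Of 56 clustered protocadherin genes tested, 42 fell and 0 rose (median log2 fold change -0.72, lowest Pcdha12 at -1.30); members of a cluster share 3′ exons, which the authors' counting left out where genes overlap, so single members are uncertain. Of 77 mitochondrial ribosomal protein genes, 56 rose and 0 fell (median 0.23), with Mrpl33 highest at 0.63. Of 360 zinc-finger genes named Zfp, 160 rose and 51 fell (median 0.21). Of 41 collagen genes, 23 rose and 2 fell (median 0.39), and of 22 integrin subunit genes, 13 rose and 4 fell (median 0.41). Of 13 small nucleolar RNA host genes, 7 rose and 0 fell (median 0.34). Over all 15947 genes tested, 30.9% rose and 25.7% fell.

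Other hosts of intronic models were picked after their values were seen. Dlg2, which encodes the scaffold PSD-93 and fell (-0.77), holds 9 tested models in its introns, and A230103L15Rik, in the host Snhg14, rose from a mean of 1.94 to 15.9 CPM (3.08 on the log2 scale).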
